A study of Mus musculus with 8 samples.

Results

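The genes described here mark macrophages and other leukocytes, and they were measured in cultures of mouse embryonic fibroblasts with and without the transcription factors Stat5a and Stat5b. The members are 44 genes chosen by name as macrophage and leukocyte identity genes, with earlier results of these data known. Of these, 42 had a probe set that the platform annotation gives to that gene alone, out of 18193 such genes on the arrays. Where a gene had several probe sets, the brightest was used. Lilrb4a shares its probe set with a second gene, and Lyn had no probe set of its own, so neither was analysed here.

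Embryonic fibroblasts are connective tissue cells grown from mouse embryos, here of the C57BL/6 strain. RNA was hybridised to 8 Affymetrix mouse arrays in 4 groups of 2, which cross genotype with growth hormone (GH). Wild type cells served as the control genotype, the other genotype was Stat5a/b-null, and each was kept either with or without the hormone. All cells were at passage 13 and were kept for 5 hours under starvation, and GH was given at 1 ug/ml for 2 hours. The design text calls the 2 arrays of a group biological replicates, numbered 2 and 3. The sources used here do not give whether replicates were separate embryos or cultures, or whether a genotype was a single line. The p-values then reflect only how these arrays vary, which may be technical. In the source label of 1 array of null cells without GH the number is 3, where its title has 2, and the title was followed.

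Macrophages are phagocytes that arise from the yolk sac, the fetal liver and the bone marrow and are present in most tissues, embryonic ones included. Their survival depends on signals through the receptor tyrosine kinase Csf1r, and much of their gene programme depends on the ETS-family transcription factor PU.1, the product of Spi1. They take up and kill microbes with Fc and scavenger receptors, lysozyme and a phagocyte NADPH oxidase, and they signal through adaptors with tyrosine-based activation motifs. Most of the genes described here are considered restricted to blood cells, and fibroblasts are defined instead by collagens, small proteoglycans and PDGF receptors.

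Levels are given as log2 values from robust multi-array average (RMA) as deposited. A group mean is called dim when it lies under 6.10, the first quartile over all genes and arrays, since the values carry no detection call. The median of all gene values was 8.04. For a comparison with a dim group the difference is given as a lower bound, the brighter mean minus that quartile. A gene is called higher or lower at a Benjamini-Hochberg adjusted p below 0.05 in limma over all 18193 genes. Errors of differences are limma standard errors (SE) with 2 arrays per group. Array medians over all probe sets ran from 6.89 to 6.96, and the 2 arrays of a group correlated at 0.997 to 0.998.

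The labelled cell type and genotype were checked first. All 14 fibroblast markers, among them Col1a1, Pdgfrb and Vim, were at or above the first quartile in all 4 groups. The cut alone does not mark fibroblasts, since 13713 of 18193 genes and all 42 members passed it in control cells without GH. Averaged over GH states, 6 of the 14 markers were higher in null cells and 2 lower. Lum was 7.73 in control cells, below the median of all gene values, and 12.08 in null cells. The targeted gene Stat5a lay at 7.83, 7.15, 7.47 and 7.77 on the 4 control arrays and between 5.57 and 5.84 on the 4 null arrays. It was at least 2.74-fold lower in null cells averaged over GH states, against a dim null mean (adjusted p = 7.77e-08, limma). Stat5b fell by 0.81 ± 0.06 (SE; adjusted p = 2.15e-07), from 7.97 to 7.16. Whether these probe sets lie inside the deleted part was not tested.

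Nearly all of the macrophage and leukocyte genes measured in the control cultures were lower in null cells. Without GH, 39 of the 42 members were lower in null cells, 1 (Evi2a) was higher there, and Fcgr1 and Dock2 were not called. Of all genes tested, 22.7% were lower and 24.8% higher in this comparison. With GH the counts were again 39, 1 and 2, and the genes were the same, against 23.1% of all genes lower and 22.2% higher. The median difference of the members was -2.35 without GH and -2.54 with GH, or -1.99 and -2.38 with dim null means at their bounds. The median over all genes was 0.03 and -0.02. Since the members were chosen with earlier results of these data known, these shares describe the members and do not test them. The 2 comparisons share no arrays, but they compare the same 2 genotypes in 1 fit, so they are not independent repeats.

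Every measured member was at or above the first quartile in control cells, both without and with GH. In null cells 31 of 42 were at or above it without GH and 26 with GH. The corresponding counts over all 18193 genes were 13713 and 13689 in control cells, and 13707 and 13441 in null cells. For 39 members all 4 null arrays lay below all 4 control arrays, which was the case for 23.6% of all genes. The log2 of the summed member signal was 15.93 to 15.99 on the 4 control arrays and 13.22 to 13.32 on the 4 null arrays. Lyz1, Lyz2 and Pld4 alone gave 14.86 to 14.96 and 9.58 to 9.83, so they hold much of the control sum. The Lyz1 set may also report Lyz2, which would then count more than once. In a bulk culture, fewer cells of a type and less RNA per cell cannot be told apart.

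**Figure D1:**
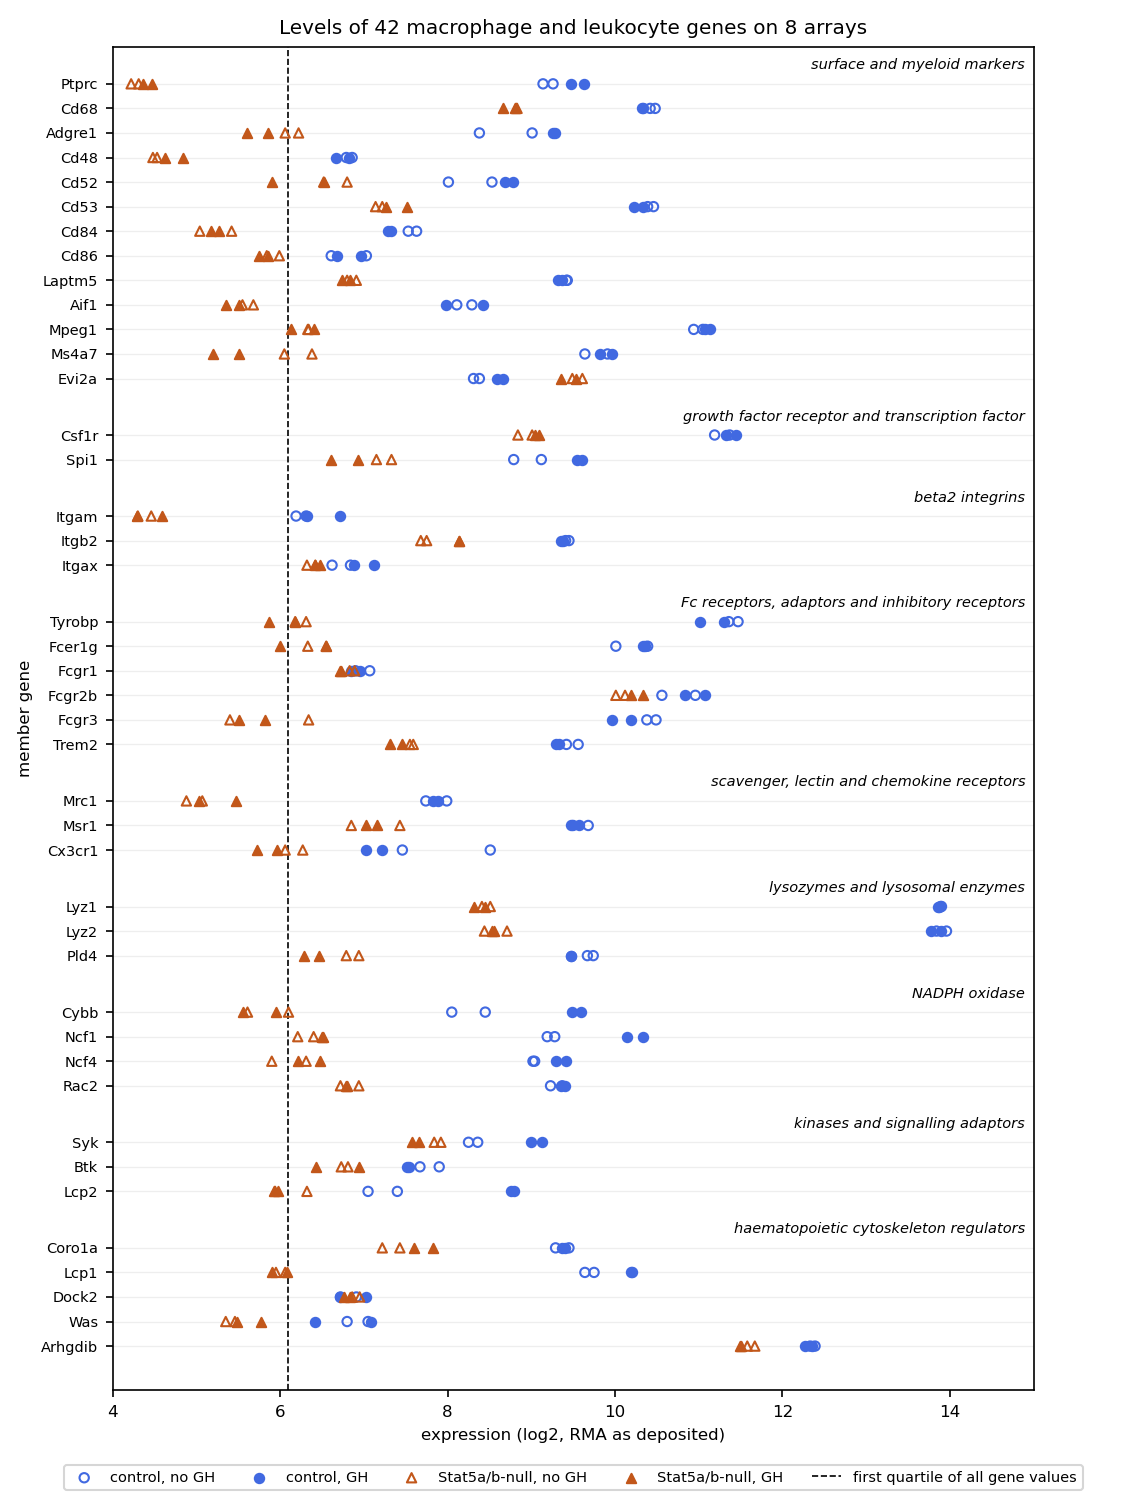
Level of each of 42 macrophage and leukocyte genes on 8 arrays (x axis, log2 RMA value; 1 row per gene, grouped by role; circles control, triangles Stat5a/b-null, filled with GH, dashed line the first quartile of all gene values). In 39 rows every triangle lies left of every circle, in the row of Evi2a every triangle lies right, and the triangles of 11 genes without GH average below the quartile.

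The sizes were spread widely. Counting a bound where the null mean was dim, 31 members were at least 2-fold lower without GH (5.61% of all genes), 21 at least 4-fold (1.28%), 10 at least 8-fold (0.473%) and 5 at least 16-fold (0.187%). Those 5 were Lyz1, Lyz2, Tyrobp, Mpeg1 and Fcgr3. Of these, the Lyz1 set may also report Lyz2, as described below. With GH, 31 members were at least 2-fold lower (5.4% of all genes), 23 at least 4-fold (1.42%), 14 at least 8-fold (0.55%) and 6 at least 16-fold (0.231%). At the other end, Itgax and Syk, though called, differed by less than 1.5-fold without GH. Tested in limma against a change of at least 1.5-fold, 35 members were called without GH and 34 with GH. No share of all genes is given for this test, so these counts only show which members kept their calls. Cd86, Itgax, Fcgr2b, Syk and Arhgdib lost their calls without GH. With GH, Evi2a, Itgax, Fcgr2b, Cx3cr1, Btk and Arhgdib lost theirs (adjusted p = 0.0527 for Cx3cr1 and 0.112 for Evi2a).

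**Figure D2:**
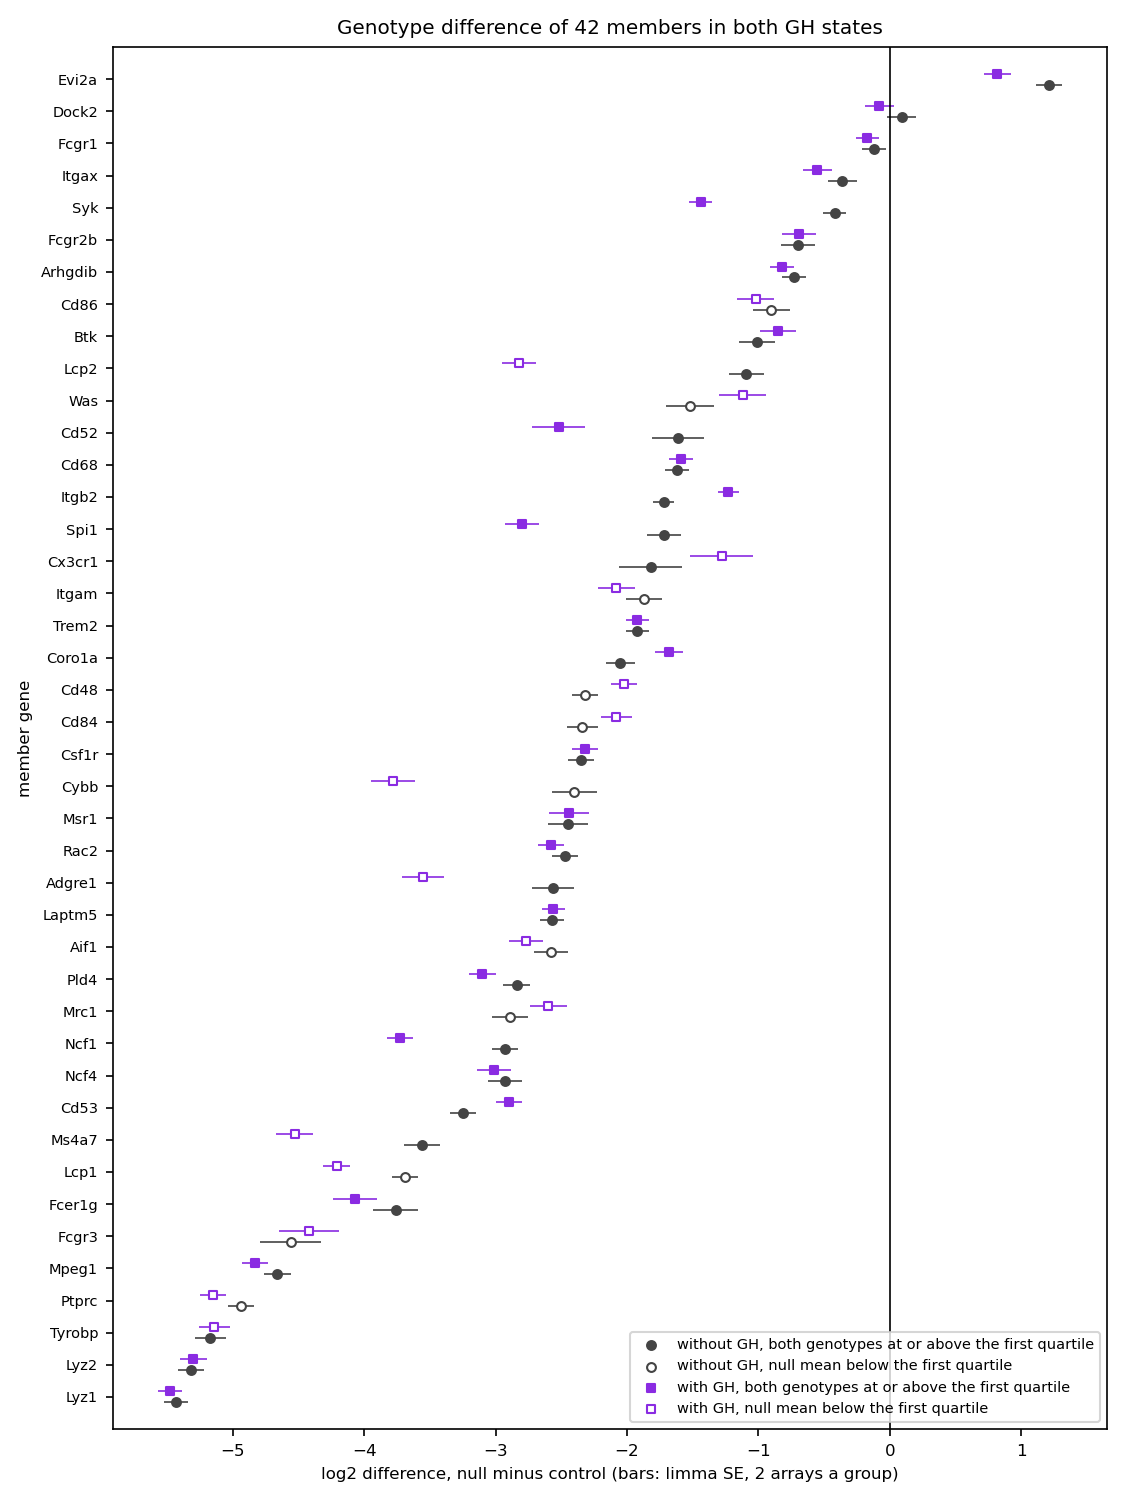
Difference between null and control cells for 42 genes (x axis, log2, null minus control; bars, limma SE, 2 arrays per group; circles without GH, squares with GH; open symbols, dim null mean, where the size is uncertain). Values without GH run from -5.43 for the Lyz1 set, which may also report Lyz2, to 1.21 for Evi2a, and 39 of 42 genes are called lower in both GH states.

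Lysozyme M, encoded by Lyz2, and lysozyme P, encoded by Lyz1, are enzymes that cut bacterial cell walls, and Lyz2 is a standard marker of macrophages and granulocytes. The Lyz2 probe set read 13.84 and 13.96 on the control arrays without GH, and 13.89 and 13.78 with GH. On the null arrays it read 8.71 and 8.44 without GH, and 8.53 and 8.55 with GH. The genotypes were far apart, and the 2 GH states of a genotype overlapped. The difference was -5.32 ± 0.10 without GH (40.1-fold, adjusted p = 3.35e-12, limma) and -5.30 ± 0.10 with GH (39.3-fold). The null mean without GH, 8.58, was not dim.

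The set used for Lyz1 read 13.86 to 13.90 on the 4 control arrays and 8.32 to 8.51 on the 4 null arrays, a difference of -5.43 ± 0.09 without GH (43.2-fold, adjusted p = 1.65e-12). The array maker marks this set as one that can match more than 1 transcript. A further such set of Lyz1 behaved alike, at 12.62 in control and 7.43 in null cells without GH. The set without that mark was dim in all 4 groups, at 5.44, 5.46, 4.95 and 4.92. Part or all of the signal of the Lyz1 set used may therefore come from Lyz2, whose set carries no such mark. A Lyz1 difference apart from Lyz2 was not shown here. The paralogs lie next to each other on chromosome 10, and the 250 bases upstream of their starts are shown because the pair carried the widest differences of all members. They come from RefSeq on GRCm38.p6, on the minus strand, at chr10:117282273-117282522 for Lyz2 and chr10:117292869-117293118 for Lyz1. Capitals mark the short ETS core AGGAAG on either strand.
Lyz2: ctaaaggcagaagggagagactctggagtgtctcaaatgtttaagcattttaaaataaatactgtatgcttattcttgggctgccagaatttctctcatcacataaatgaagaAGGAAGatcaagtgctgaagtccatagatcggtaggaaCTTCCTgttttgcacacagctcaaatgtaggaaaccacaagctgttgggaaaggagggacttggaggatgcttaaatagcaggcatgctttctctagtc
Lyz1: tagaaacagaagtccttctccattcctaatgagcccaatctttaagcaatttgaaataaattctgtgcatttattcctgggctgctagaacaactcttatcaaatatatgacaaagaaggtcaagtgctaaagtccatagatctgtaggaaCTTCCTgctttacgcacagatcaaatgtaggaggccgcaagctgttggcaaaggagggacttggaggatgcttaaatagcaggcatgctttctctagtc
Aligned end to end, the windows had 200 identical and 48 mismatched positions and 4 gap columns, an identity of 79.4%. Each window holds the ETS core on the opposite strand at the same distance from the start, and the Lyz2 window holds it once more on the gene's own strand.

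Pld4, an endolysosomal nuclease of phagocytes, read 9.67 and 9.74 in control and 6.94 and 6.79 in null cells without GH. It fell by 2.84 ± 0.10 without GH (7.16-fold) and fell by 3.10 ± 0.10 with GH (8.55-fold). Mpeg1 encodes perforin-2, a pore-forming protein of macrophages. It read 10.94 to 11.13 on the 4 control arrays and 6.13 to 6.41 on the 4 null arrays. The difference was -4.66 ± 0.10 without GH (25.3-fold, adjusted p = 7.76e-12, limma) and -4.83 ± 0.10 with GH (28.5-fold).

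Among surface and general myeloid markers, 12 of 13 were lower in null cells whether or not GH was given. Of all genes, 22.7% were lower without GH and 23.1% with GH. Ptprc encodes CD45, the tyrosine phosphatase present on nearly all nucleated blood cells. It read 9.14 and 9.26 in control cells without GH, and 9.63 and 9.48 with GH. The null arrays read 4.22 and 4.31 without GH, and 4.47 and 4.36 with GH, the lowest null levels being well under the first quartile. It was thus at least 8.6-fold lower in null cells without GH (adjusted p = 3.19e-12, limma) and at least 11.0-fold lower with GH.

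Cd68, a lysosomal glycoprotein of macrophages, read 10.42 and 10.48 in control cells without GH and 8.83 and 8.82 in null cells. With GH it read 10.32 and 10.33, against 8.66 and 8.80. It fell by 1.62 ± 0.09 without GH (3.08-fold, adjusted p = 1.67e-08) and fell by 1.59 ± 0.09 with GH (3.02-fold). Unlike Ptprc, Cd68 was not dim in null cells. Adgre1 encodes F4/80, a surface marker of mouse macrophages. Its control arrays read 8.38 and 9.01 without GH and 9.26 and 9.28 with GH. Its null arrays read 6.06 and 6.22 without GH and 5.60 and 5.85 with GH. It fell by 2.56 ± 0.16 without GH (5.89-fold) and was at least 9.01-fold lower with GH.

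The leukocyte tetraspanin gene Cd53 read 10.46 and 10.39 in control cells without GH and 7.14 and 7.22 in null cells, 9.49-fold lower. The Ms4a7 level, a macrophage membrane protein gene, was 9.64 and 9.91 in control and 6.05 and 6.38 in null cells without GH, 11.8-fold lower. Aif1, which encodes the calcium-binding protein Iba1 of macrophages and microglia, was at least 4.29-fold lower. Its only one-gene probe set is marked as matching more than 1 transcript. Cd52 was 3.04-fold lower and Cd84, a SLAM-family receptor, at least 2.79-fold lower without GH. Cd86, a ligand for CD28 on T cells, was near the first quartile. It read 7.03 and 6.61 in control and 5.84 and 5.99 in null cells without GH, and 6.68 and 6.96 against 5.75 and 5.86 with GH. Its arrays did not overlap between genotypes, and it was at least 1.65-fold lower without GH (adjusted p = 0.000124). Cd48, another SLAM-family member, was at least 1.66-fold lower.

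Evi2a, first found as a site of retroviral insertion in mouse leukaemia, went the other way. It read 8.31 and 8.38 in control cells without GH and 8.66 and 8.59 with GH. Null cells gave 9.61 and 9.49 without GH and 9.35 and 9.54 with GH. It was higher in null cells by 1.21 ± 0.10 without GH (2.31-fold, adjusted p = 5.28e-07, limma) and by 0.82 ± 0.10 with GH (1.76-fold). A second, dim Evi2a probe set read 5.67 in control and 5.33 in null cells without GH. With the mean of both probe sets the difference with GH was 0.17 (adjusted p = 0.102).

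Csf1r, the receptor for the macrophage growth factors CSF1 and IL-34, read 11.37 and 11.19 in control cells without GH and 11.44 and 11.33 with GH. In null cells it read 9.01 and 8.84 without GH and 9.09 and 9.05 with GH. It fell by 2.35 ± 0.10 without GH (5.11-fold, adjusted p = 1.93e-09, limma) and fell by 2.32 ± 0.10 with GH (4.98-fold). All 4 null arrays were below all 4 control arrays, yet none was dim. Its 2 further probe sets were lower too, from 10.44 to 8.35 and from 9.67 to 8.52 without GH.

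Spi1 read 9.12 and 8.79 in control cells without GH and 9.55 and 9.60 with GH. The null readings were 7.33 and 7.15 without GH and 6.93 and 6.61 with GH. The difference was -1.72 ± 0.13 without GH (3.28-fold, adjusted p = 3.47e-07, limma) and -2.80 ± 0.13 with GH (6.98-fold). Within control cells the arrays with GH lay above those without, and within null cells they lay below, as taken up with the GH comparisons.

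The beta2 integrins are adhesion receptors of leukocytes made of a shared chain, Itgb2 (CD18), and a partner such as Itgam (CD11b) or Itgax (CD11c). All 3 were lower in null cells, against 22.7% of all genes without GH and 23.1% with GH. Itgb2 read 9.45 and 9.41 in control and 7.75 and 7.68 in null cells without GH, and 9.36 and 9.38 against 8.14 and 8.14 with GH. It fell by 1.72 ± 0.08 without GH (3.29-fold, adjusted p = 6.74e-09) and fell by 1.23 ± 0.08 with GH (2.34-fold). Itgam was near the first quartile even in control cells, at 6.31 and 6.19 without GH and 6.32 and 6.72 with GH. In null cells it read 4.30 and 4.46 without GH and 4.29 and 4.59 with GH, so its bound was only 1.11-fold without GH and 1.34-fold with GH, although it was called (adjusted p = 2.73e-07 and 1.08e-07, limma). Itgax showed the smallest called difference, -0.36 ± 0.11 without GH (adjusted p = 0.0144). It was -0.26 (adjusted p = 0.113) without control replicate 2 without GH, and -0.32 (adjusted p = 0.0885) without null replicate 3 without GH.

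Tyrobp (DAP12) and Fcer1g (the Fc receptor gamma chain) are signalling adaptors of activating receptors on myeloid cells. Tyrobp read 11.36 and 11.47 in control cells without GH and 11.30 and 11.02 with GH. Null cells gave 6.31 and 6.18 without GH and 5.87 and 6.18 with GH. It fell by 5.17 ± 0.12 without GH (35.9-fold, adjusted p = 1.25e-11, limma) and was at least 33.4-fold lower with GH. Fcer1g read 10.01 and 10.39 in control cells without GH and 10.33 and 10.36 with GH. Its null arrays read 6.55 and 6.33 without GH and 6.00 and 6.55 with GH. It fell by 3.76 ± 0.17 without GH (13.5-fold, adjusted p = 2.6e-09) and fell by 4.07 ± 0.17 with GH (16.8-fold). Both adaptors were thus near the first quartile in null cells. Trem2, a lipid-sensing receptor that signals through Tyrobp, fell by 1.92 ± 0.09 in each GH state (3.79-fold), from 9.49 to 7.57 without GH. Its call rests on a set marked as matching more than 1 transcript, and the other Trem2 set was dim in every group.

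Fc gamma receptors bind antibody-coated targets. Fcgr3 read 10.38 and 10.49 in control cells without GH and 5.40 and 6.34 in null cells, at least 20.2-fold lower (adjusted p = 7.48e-09, limma). Fcgr2b, the inhibitory Fc gamma receptor, had probe sets that disagreed in size. The brightest read 10.76 in control and 10.06 in null cells without GH, a difference of -0.70 ± 0.13 (1.62-fold, adjusted p = 0.000783). The other sets above the first quartile went from 10.11 to 5.32, from 9.78 to 6.74 and from 8.77 to 6.07. Fcgr2b and Fcgr3 are near-identical over much of their ligand-binding part, so the split of signal between them is uncertain. Fcgr1, the high-affinity receptor, was not called in the brightest set, which read 6.90 to 7.07 in control and 6.83 to 6.89 in null cells without GH. Its other set went from 7.02 to 5.49, and with the mean of both sets Fcgr1 was lower by -0.83 without GH (adjusted p = 0.000399) and -0.84 with GH (adjusted p = 0.000377).

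Scavenger and lectin receptors take up modified lipoproteins, glycoproteins and microbes. Mrc1, the mannose receptor, read 7.74 and 7.99 in control cells without GH and 7.89 and 7.82 with GH. Its null arrays read 4.88 and 5.07 without GH and 5.47 and 5.03 with GH. It was at least 3.4-fold lower without GH (adjusted p = 5.61e-09, limma) and at least 3.37-fold lower with GH. Msr1, scavenger receptor A, fell by 2.45 ± 0.15 without GH (5.48-fold), from 9.59 to 7.14. The chemokine receptor gene Cx3cr1 varied more between arrays, at 7.46 and 8.51 in control cells without GH and 6.06 and 6.27 in null cells, a fall of 1.82 ± 0.24 (3.53-fold, adjusted p = 4.53e-05).

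The phagocyte NADPH oxidase makes superoxide. Its membrane catalytic subunit is gp91phox (Cybb), its cytosolic organiser is p47phox (Ncf1), p40phox is encoded by Ncf4, and Rac2 is the blood-cell Rac GTPase of the complex. All 4 were lower in null cells, against 22.7% of all genes without GH and 23.1% with GH. Cybb read 8.45 and 8.05 in control and 5.61 and 6.10 in null cells without GH, and 9.59 and 9.49 against 5.95 and 5.56 with GH. It was at least 4.45-fold lower without GH (adjusted p = 2.32e-07, limma) and at least 10.9-fold lower with GH. Ncf1 read 9.19 and 9.28 against 6.21 and 6.40 without GH, and 10.33 and 10.14 against 6.51 and 6.50 with GH. It fell by 2.93 ± 0.10 without GH (7.64-fold) and fell by 3.73 ± 0.10 with GH (13.2-fold). Ncf4 was 7.6-fold lower and Rac2 5.54-fold lower without GH.

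Partners and paralogs of these subunits that other cell types also use were counted beside them. Of 4 such genes measured, 3 were lower and 1 higher averaged over GH states, where 26.8% of all genes were lower and 27.7% higher. Cyba, which encodes the p22phox partner of several oxidases, fell by 1.31 ± 0.06, from 12.6 to 11.3. Nox4, an oxidase catalytic subunit of fibroblasts and other non-blood cells, fell by 1.96 ± 0.08. Rac1, the widely expressed Rac, fell by 0.18 ± 0.06. Noxo1, a paralog of the organiser Ncf1, rose by 0.26 ± 0.06.

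Syk, Btk and Lcp2 act below immune receptors. Syk, a tyrosine kinase recruited to activation motifs, read 8.36 and 8.25 in control and 7.84 and 7.92 in null cells without GH, and 9.13 and 9.0 against 7.57 and 7.66 with GH. The difference was -0.42 ± 0.09 without GH (1.34-fold, adjusted p = 0.00227, limma) and -1.44 ± 0.09 with GH (2.72-fold, adjusted p = 7.86e-08). With the mean of its 4 probe sets the Syk difference without GH was -0.04 (adjusted p = 0.764). Lcp2, the adaptor SLP-76, read 7.40 and 7.05 in control and 6.32 and 5.94 in null cells without GH, and 8.76 and 8.79 against 5.98 and 5.93 with GH. It was 2.13-fold lower without GH and at least 6.42-fold lower with GH. The Tec-family kinase gene Btk fell by 1.01 ± 0.14 without GH (2.02-fold) and fell by 0.85 ± 0.14 with GH (1.8-fold).

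Blood cells use their own versions of several regulators of the actin cytoskeleton. Lcp1 (L-plastin), an actin-bundling protein, read 9.75 and 9.64 in control and 6.06 and 5.95 in null cells without GH, and 10.19 and 10.20 against 5.90 and 6.08 with GH. It was at least 12.1-fold lower without GH (adjusted p = 2.75e-11, limma) and at least 17.1-fold lower with GH. Coro1a, the leukocyte coronin, read 9.29 and 9.45 in control and 7.43 and 7.22 in null cells without GH, a fall of 2.05 ± 0.11 (4.14-fold). Arhgdib read 12.33 to 12.39 in control and 11.58 to 11.67 in null cells without GH and fell by 0.73 ± 0.09 (1.66-fold). Was, the Wiskott-Aldrich protein gene, was at least 1.77-fold lower.

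Dock2, a Rac activator of leukocytes, was the only member whose arrays overlapped between genotypes within a GH state. It read 6.91 and 6.72 in control and 6.95 and 6.86 in null cells without GH. The difference was 0.09 ± 0.11 without GH (adjusted p = 0.565) and -0.08 ± 0.11 with GH (adjusted p = 0.64). Its other probe set above the first quartile went from 6.75 to 6.08, and with the mean of the gene's sets Dock2 was lower by -0.22 without GH (adjusted p = 0.0324) and -0.40 with GH (adjusted p = 0.00117).

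Widely expressed relatives of these genes were set beside them. Of 13 measured, 4 were higher and 7 lower in null cells averaged over GH states, with a median difference of -0.18. Of all genes, 27.7% were higher and 26.8% lower in this comparison. All 13 were at or above the first quartile in all 4 groups. Coro1c fell by 0.77 ± 0.07, Fyn by 0.66 ± 0.07 and Itgb1 by 0.56 ± 0.07, while Dock5 rose by 0.86 ± 0.07.

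The members' 80 one-gene probe sets repeated the direction in most cases. Of these, 64 were at or above the first quartile in at least 1 group, and 60 of the 64 were lower in null cells averaged over GH states, 1 was higher and 3 were not called. Of all 34945 one-gene probe sets, 25.7% were lower. Among the 22 members with several sets, all those at or above the quartile were lower for 18. The single such set of Evi2a was higher, and for Dock2, Fcgr1 and Laptm5 at least 1 such set was lower and at least 1 was not called. Laptm5, a lysosomal membrane protein gene of blood cells, spanned the widest range, with 1 set going from 10.38 to 4.17 without GH, the set used from 9.43 to 6.86, and another at 7.59 and 7.60. Without the sets marked as matching more than 1 transcript, the difference without GH was 0.01 for Laptm5 (adjusted p = 0.971) and 0.02 for Trem2 (adjusted p = 0.907).

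**Figure D3:**
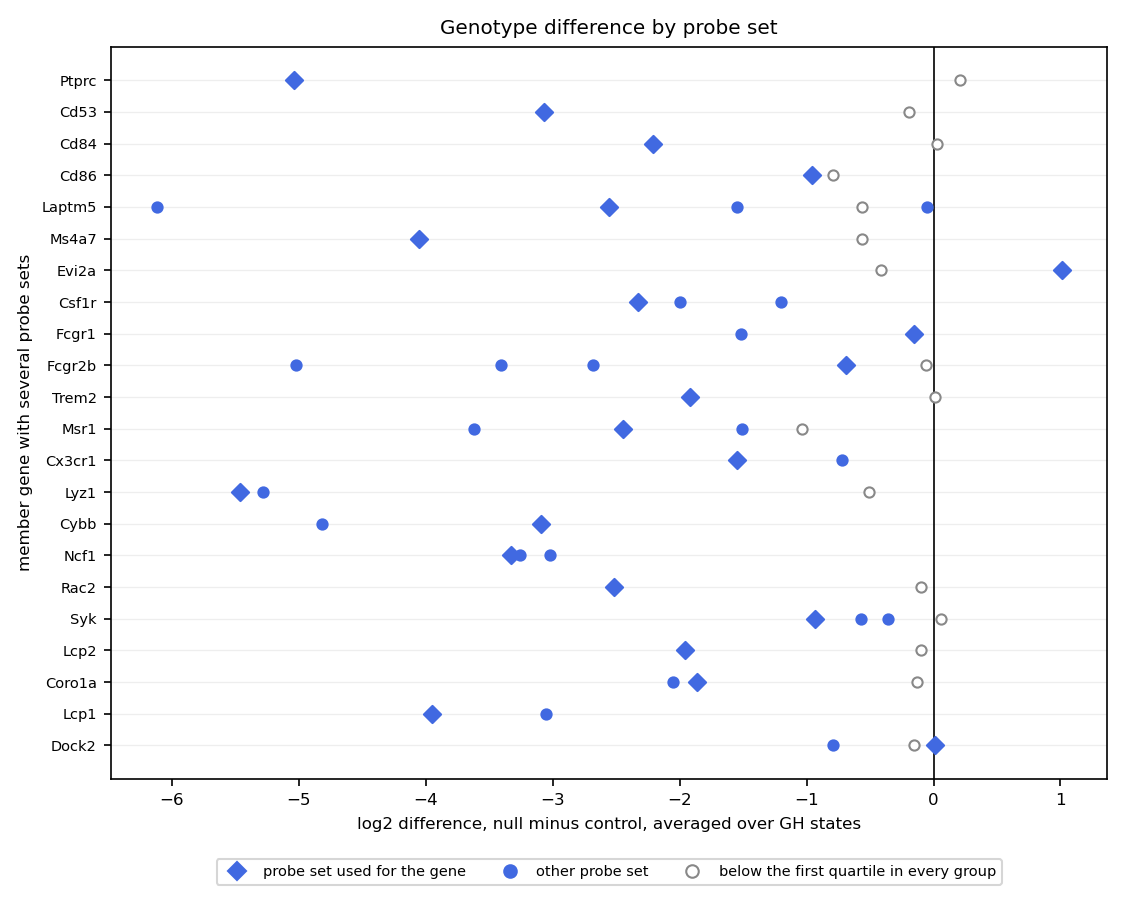
Difference between null and control cells for each probe set of the 22 members with several (x axis, log2, null minus control, averaged over GH states; diamonds, the set used; filled circles, other sets; open circles, sets below the first quartile in all 4 groups). Most filled symbols lie below 0, most open ones lie nearer 0, and the filled symbols of Laptm5 run from -6.12 to -0.05.

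GH was compared with none in control cells to see which members respond to the hormone where STAT5 is present. With GH, 6 of 42 members were higher, against 1.72% of all genes, and the other 36 were not called. The 6 were Lcp2, Cybb, Ncf1, Syk, Spi1 and Lcp1. Lcp2 rose by 1.56 ± 0.13 (2.94-fold, adjusted p = 1.6e-05, limma), from 7.40 and 7.05 to 8.76 and 8.79. Cybb rose by 1.29 ± 0.17 (2.44-fold, adjusted p = 0.000973), from 8.45 and 8.05 to 9.59 and 9.49. Ncf1 rose by 1.00 ± 0.10 (2.00-fold, adjusted p = 7e-05), from 9.19 and 9.28 to 10.33 and 10.14. So the catalytic subunit and the organiser of the oxidase rose together, whereas Ncf4 read 9.04 and 9.02 without and 9.42 and 9.30 with GH and was not called. Syk rose by 0.76 ± 0.09 (1.69-fold, adjusted p = 0.000404).

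Spi1 rose by 0.62 ± 0.13 (1.54-fold, adjusted p = 0.0234, limma) and Lcp1 by 0.50 ± 0.10 (1.41-fold, adjusted p = 0.0132). Both calls depended on single arrays. Spi1 was 0.46 (adjusted p = 0.149) without control replicate 3 without GH, 0.60 (adjusted p = 0.112) without control replicate 3 with GH, and 0.64 (adjusted p = 0.0782) without control replicate 2 with GH. Fitted with only the arrays compared it was 0.62 (adjusted p = 0.0723). Lcp1 was 0.44 (adjusted p = 0.0843), 0.50 (adjusted p = 0.0916) and 0.50 (adjusted p = 0.0865) without the same 3 arrays. By probe set, 11 of 80 were higher, where 1.33% of all one-gene sets were. All 3 sets of Cybb rose (0.98, 1.04 and 1.29), all 3 of Ncf1 rose (0.90, 1.00 and 1.00), and both of Lcp1 rose (0.50 and 0.59), but 1 of 4 for Syk.

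Most identity markers were not called for GH in control cells, among them Ptprc, Cd68, Csf1r, Lyz2 and Tyrobp. Of all genes, 2.62% were called in either direction. Leaving out 1 array at a time gave 4 to 7 members called.

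**Figure D4:**
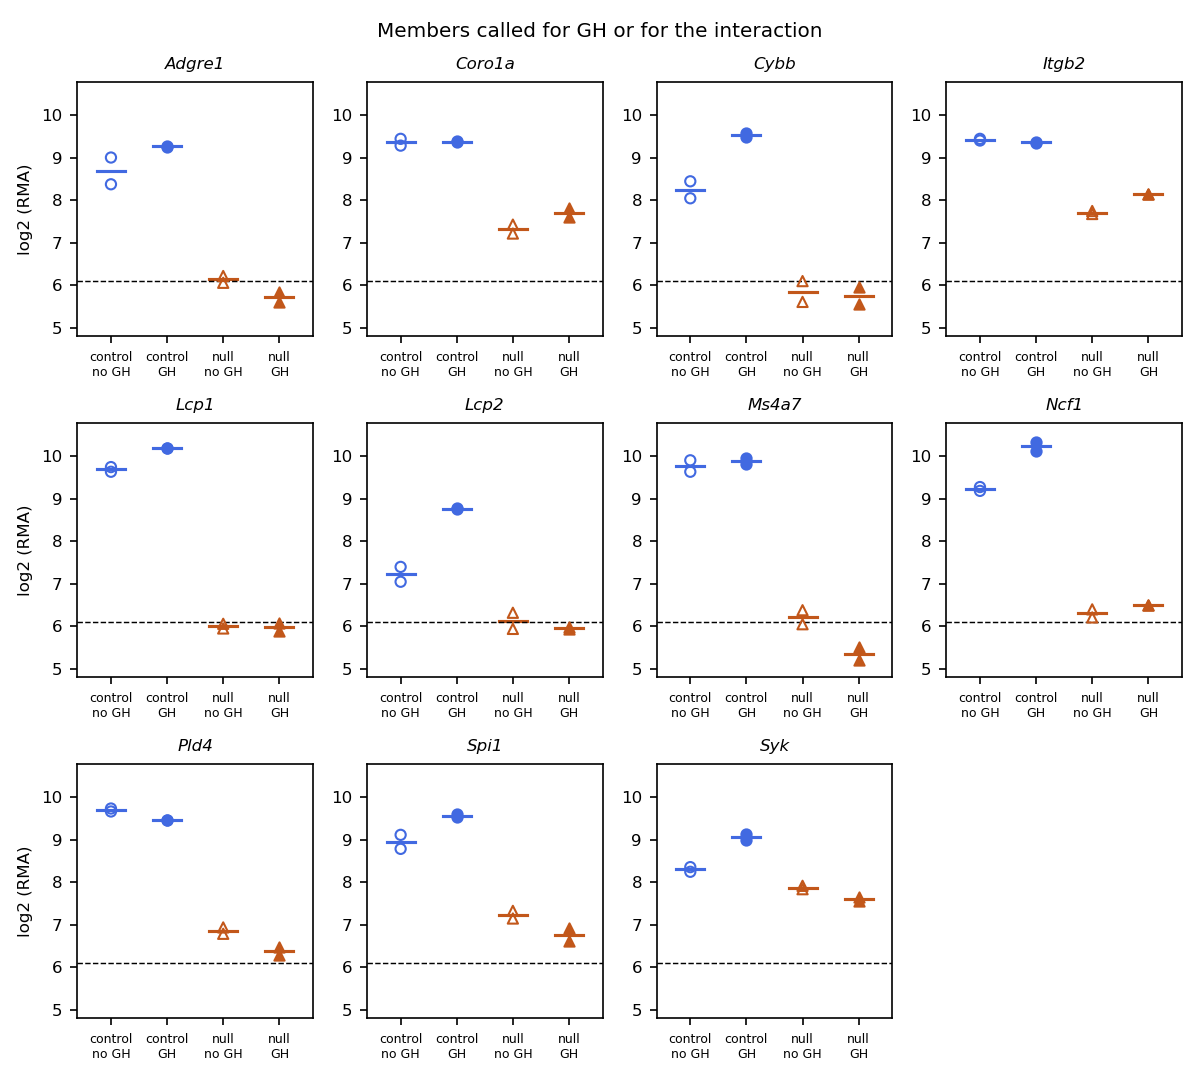
Levels of the 11 members called for GH in either genotype or for the interaction (1 panel per gene; y axis, log2 RMA value; points, single arrays; bars, means of 2 arrays; dashed line, first quartile of all gene values). In control cells Lcp2, Cybb, Ncf1, Syk, Spi1 and Lcp1 are higher with GH. In null cells Ms4a7, Spi1 and Pld4 are lower and Itgb2 and Coro1a higher with GH, with members called there about as often as all genes.

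In null cells, 5 of 42 members were called for GH, against 11.7% of all genes. Higher were 2 (5.36% of all genes) and lower were 3 (6.35%). The members were thus called about as often as genes in general. Itgb2 rose by 0.43 ± 0.08 (1.34-fold, adjusted p = 0.00671, limma), from 7.75 and 7.68 to 8.14 and 8.14. Coro1a rose by 0.39 ± 0.11 (1.31-fold, adjusted p = 0.0411), from 7.43 and 7.22 to 7.60 and 7.83. Spi1 fell by 0.47 ± 0.13 (1.38-fold, adjusted p = 0.0387) and Pld4 by 0.49 ± 0.10 (1.4-fold, adjusted p = 0.00702). Ms4a7 went from 6.05 and 6.38 to 5.51 and 5.20, at least 1.08-fold lower with GH (adjusted p = 0.00196). The count was 2 without null replicate 2 with GH, and 3 without null replicate 3 with GH or without either null array without GH. Spi1 lost its call without null replicate 2 without GH (-0.38, adjusted p = 0.226), null replicate 3 without GH (-0.56, adjusted p = 0.0657) and null replicate 3 with GH (-0.31, adjusted p = 0.264). It also lost it with arrays centred on their medians (-0.42, adjusted p = 0.0752) or after a further quantile normalization (-0.38, adjusted p = 0.101). Pld4 lost it without null replicate 2 with GH (-0.40, adjusted p = 0.0904) or without GH (-0.41, adjusted p = 0.0685), and Itgb2 without null replicate 2 with GH (0.42, adjusted p = 0.054). Coro1a lost its call without any of the 4 null arrays or the 2 control arrays with GH (0.27 to 0.50, adjusted p = 0.0505 to 0.249), and was 0.08 (adjusted p = 0.657) with the mean of its probe sets.

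Whether GH acted differently in the 2 genotypes was tested as an interaction, the GH difference in null cells minus that in control cells. It was called for 8 of 42 members, against 5.16% of all genes. Lower were 7 (2.33% of all genes) and Itgb2 was higher (2.83%). Where levels were above the first quartile in all 4 groups, the interaction was -1.02 ± 0.13 for Syk (adjusted p = 0.000722, limma), -1.09 ± 0.18 for Spi1 (adjusted p = 0.00504), -0.79 ± 0.14 for Ncf1 (adjusted p = 0.007) and 0.49 ± 0.12 for Itgb2 (adjusted p = 0.0347). Of these 4 only Spi1, by the probe set used and over all genes, was called for GH in both genotypes, higher in control and lower in null cells. Lcp2, Cybb, Ms4a7 and Adgre1 were also called (adjusted p = 0.000231, 0.00665, 0.0138 and 0.0303), but each had a dim null mean, so only their direction is given. In null cells Lcp2 read 6.32 and 5.94 without GH and 5.98 and 5.93 with GH.

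Leaving out 1 array ended some of these calls. The count was 5 without null replicate 3 with GH, and 5 without null replicate 3 without GH. Itgb2 lost its call whichever of the 8 arrays was left out (0.45 to 0.53, adjusted p = 0.0572 to 0.13). Adgre1 lost it without any of the 4 null arrays or the 2 control arrays with GH (adjusted p = 0.0516 to 0.177). Ms4a7 lost it without null replicate 3 with GH (adjusted p = 0.0889) or without GH (adjusted p = 0.0616), and Cybb without null replicate 3 with GH (adjusted p = 0.0605). Syk, Spi1, Ncf1 and Lcp2 were called with any single array left out. By probe set, 14 of 80 were lower for the interaction (1.62% of all one-gene sets), among them all 3 sets of Cybb and of Ncf1, 3 of 4 for Syk and 1 of Fcgr2b. The 3 Ncf1 sets disagreed on null cells. The set used read 6.30 without and 6.51 with GH and was not called, whereas the others fell from 5.23 to 4.71 and from 6.49 to 5.83. Of the Syk sets not used, those at -0.52 and -0.51 were called lower with GH in null cells, and that at -0.05 was not. Tested over all one-gene probe sets, the Spi1 set was not called there (-0.47).

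Upstream windows of 31 members were matched in RefSeq and searched for 3 motifs on both strands. AGGAAG, the short ETS core, was in a window of 15 of 31 members (48.4%) and of 32.2% of 14421 other genes on the arrays. GAGGAAGT, a longer form that contains it and that PU.1 is known to bind, was in none of the 31 members and in 2.8% of the other genes. The paired STAT half-sites TTCNNNGAA were in 2 of 31 members (6.45%), Fcgr1 and Ncf1, and in 7.43% of the other genes. These are matches of letters in 250 bases and were not tested against binding. The windows of Fcer1g, with a large genotype difference, and of Ncf1 and Lcp2, which rose with GH in control cells, are printed to show such matches in capitals. Fcer1g lies at chr1:171234350-171234599 (minus strand), Ncf1 at chr5:134229626-134229875 (minus strand) and Lcp2 at chr11:34046678-34046927 (plus strand), all on GRCm38.p6. Capitals mark AGGAAG or its complement in Fcer1g and Lcp2, and TTCNNNGAA in Ncf1.
Fcer1g: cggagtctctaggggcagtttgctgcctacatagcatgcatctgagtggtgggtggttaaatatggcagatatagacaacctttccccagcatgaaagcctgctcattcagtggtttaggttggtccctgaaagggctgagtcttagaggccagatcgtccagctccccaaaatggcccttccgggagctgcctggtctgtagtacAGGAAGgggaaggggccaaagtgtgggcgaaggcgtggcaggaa
Ncf1: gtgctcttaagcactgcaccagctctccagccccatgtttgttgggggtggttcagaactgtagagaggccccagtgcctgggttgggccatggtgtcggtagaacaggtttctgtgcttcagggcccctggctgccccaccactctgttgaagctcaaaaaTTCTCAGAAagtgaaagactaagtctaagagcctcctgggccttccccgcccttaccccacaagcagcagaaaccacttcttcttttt
Lcp2: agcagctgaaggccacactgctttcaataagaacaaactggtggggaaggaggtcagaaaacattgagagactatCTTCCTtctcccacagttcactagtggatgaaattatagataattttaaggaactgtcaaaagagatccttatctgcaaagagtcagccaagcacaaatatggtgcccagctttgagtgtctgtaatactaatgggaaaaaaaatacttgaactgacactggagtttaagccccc

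Other genes of the same cells were counted to see how far the pattern reached, always for null against control cells averaged over GH states. In that comparison 26.8% of all genes were lower and 27.7% higher. These lists, like the members, were chosen with earlier results of these data known. Some genes counted as called were dim in both genotypes. Of 25 further myeloid receptor and signalling genes, 21 were lower and the other 4 were not called, with a median of -1.26. Plek, a substrate of protein kinase C in platelets and leukocytes, fell by 3.78 ± 0.07 (adjusted p = 4.46e-13, limma). Fermt3 (kindlin-3), which activates integrins in blood cells, fell by 2.64 ± 0.06. P2ry6, a nucleotide receptor, was at least 6.91-fold lower and Clec4n (dectin-2) at least 6.1-fold lower.

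Macrophage transcription factors, CSF ligands and their receptors were mixed, with 11 of 17 lower and 4 higher. Of all genes, 26.8% were lower and 27.7% higher. Csf2ra, the GM-CSF receptor alpha chain, was at least 7.97-fold lower and Tfec, a macrophage member of the MiT family, at least 3.4-fold lower. Gata2 fell by 1.46 ± 0.06. Maf, by contrast, rose by 2.33 ± 0.12, from 8.64 to 10.97. Of 12 markers of particular tissue macrophages and microglia, 5 were lower and 1 higher, against the same shares of all genes. Folr2 fell by 1.86 ± 0.07, whereas Tmem119 rose by 0.72 ± 0.06.

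**Figure D5:**
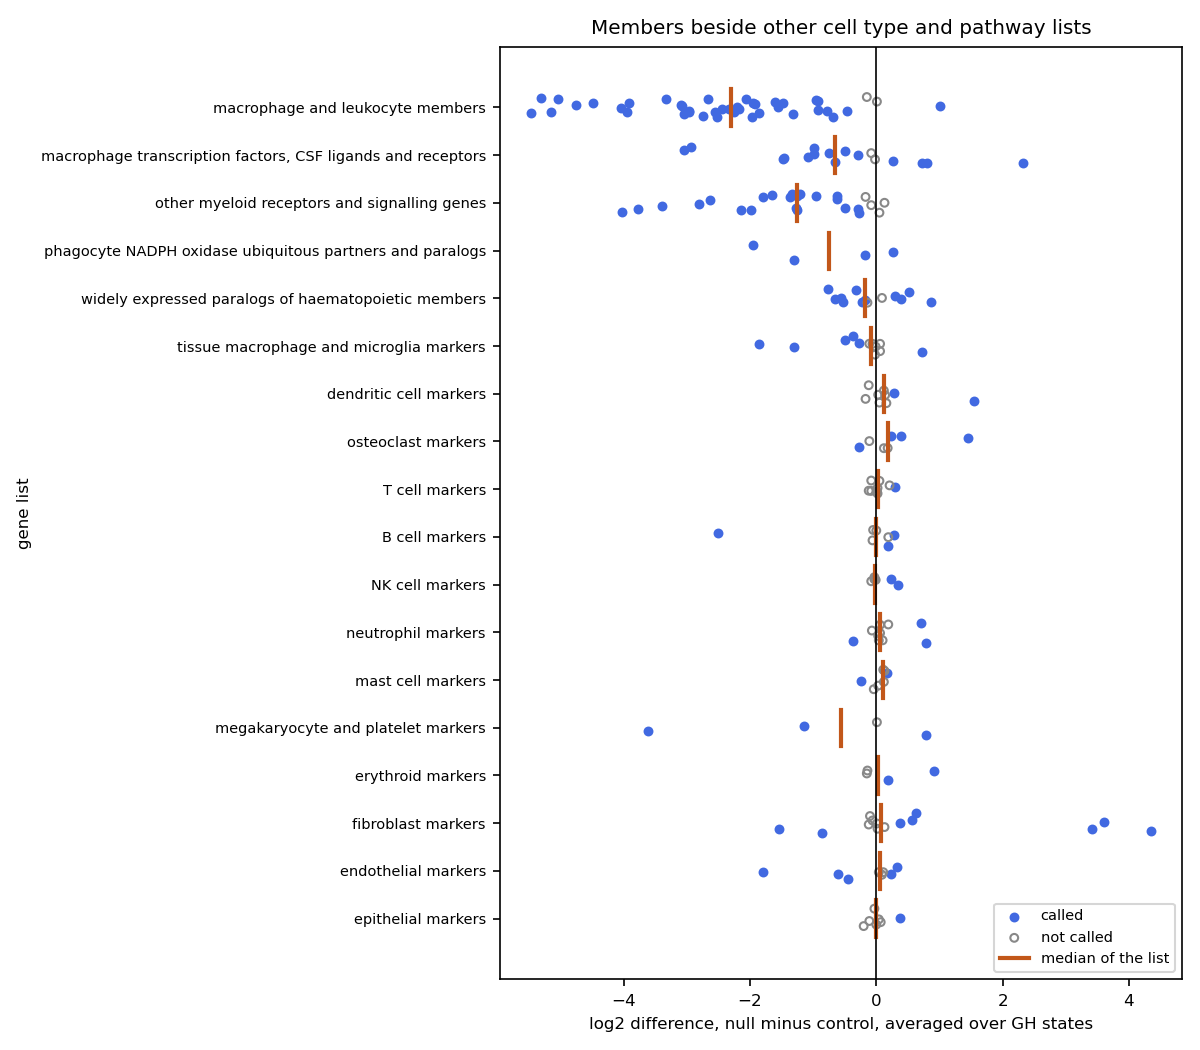
Difference between null and control cells averaged over GH states for the members and for 17 other gene lists (x axis, log2, null minus control; 1 row per list; filled points called, open points not called; vertical bars, list medians). The members have a median of -2.3 and the other myeloid genes -1.26, while the medians of the T, B and NK cell, neutrophil, mast cell and epithelial lists lie between -0.02 and 0.11. Each of these last lists holds genes that were dim in control cells too, where a fall would hardly show.

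Markers of other blood cells were counted the same way, where 27.7% of all genes were higher and 26.8% lower. For T cells 1 of 9 markers was higher, for NK cells 2 of 6, for dendritic cells 2 of 9 and for erythroid cells 2 of 4, and the rest of these lists were not called. For B cells 2 of 7 were higher and 1 lower, for neutrophils 2 and 1 of 10, for mast cells 1 and 1 of 7, for osteoclasts 3 and 1 of 7, and for megakaryocytes and platelets 1 and 2 of 4. Among the higher ones, Cd5 (T cell), Ms4a1 (B cell) and Ocstamp (osteoclast) were dim in both genotypes. So were S100a8 (neutrophil) and Ms4a2 (mast cell) among the lower ones. The B cell gene that was lower is Blnk, an adaptor that macrophages also express, at least 5.32-fold. The platelet chemokine genes Ppbp (at least 4.63-fold) and Pf4 (1.14 ± 0.08 lower on the log2 scale) were the lower ones of their list. Cd74, the invariant chain of MHC class II, was higher by 1.55 ± 0.06. Not all of these markers reached the first quartile in control cells without GH. For T cells 5 of 9 did, for B cells 4 of 7, for NK cells 2 of 6 and for mast cells 3 of 7. For neutrophils 6 of 10 did, for dendritic cells 5 of 9, and for erythroid cells 2 of 4. A fall of a marker already dim would hardly show, so the lists do not show whether such cells differed.

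Outside the blood lineages and against the same shares of all genes, 3 of 8 endothelial markers were lower and 2 higher, and 1 of 7 epithelial markers was higher. Of the lower endothelial markers, Vwf and Tek were dim in both genotypes. Of 14 fibroblast markers, 6 were higher and 2 lower. Lum (4.35 ± 0.07), Dcn (3.61 ± 0.06) and Pdgfra (3.42 ± 0.08), genes of matrix proteoglycans and of a PDGF receptor, were higher in null cells, and Twist2 fell by 1.54 ± 0.08. The log2 summed fibroblast marker signal was 17.41 to 17.50 on control and 17.58 to 17.71 on null arrays. The part of these fibroblast differences in the members' result was not tested.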

How the data were processed

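RNA was measured on 8 Affymetrix mouse arrays, 2 in each of 4 groups taken from the array titles. The authors deposited log2 values from RMA made in Partek 6.10.0511, per the submitters' processing notes. RMA corrects background, equalises the arrays' distributions and summarises each probe set. No settings of it stand in the sources used here, and the number of arrays limits the precision.

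Of 45101 probe sets, 64 controls were left out, 34945 named 1 gene, 932 several and 9160 none in the platform annotation. Symbols were updated through Entrez identifiers for 34741, and 204 kept the annotated name. The brightest one-gene probe set was taken per gene, giving 18193 genes.

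A linear model with a mean for each group was fitted to the 8 arrays together (limma 3.58.1, R 4.3.3), with 4 residual degrees of freedom, a prior of 7.82 degrees of freedom and a prior SD of 0.101. Adjusted p-values are Benjamini-Hochberg over all genes, called below 0.05. The fit was tested on simulated data, where it recovered 100% of changes of 1 on the log2 scale in the comparison without GH and 28% of changes of 0.5 in the interaction. The alternatives were other probe set, filter, scaling and variance choices, a test against 1.5-fold, a replicate block, and each array left out in turn.

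The members and the other lists were chosen with earlier results of these data known. Given on every array are 15 members listed by role and, per comparison and direction, up to 5 with the lowest p; other genes are the 4 with the lowest p per list and the targeted genes. Promoter windows are RefSeq sequences on GRCm38.p6, the 250 bases before each start.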

Additional observations from a re-analysis of the deposited data

Results flagged for a closer look

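The GH difference in null cells minus the GH difference in control cells was called in limma for 8 of the 42 members, and these are listed because the difference between the genotypes was itself tested. On the log2 scale it was -1.73 for Lcp2, -1.39 for Cybb, -1.09 for Spi1, -1.02 for Syk, -0.99 for Adgre1, -0.97 for Ms4a7, -0.79 for Ncf1 and 0.49 for Itgb2. In Lcp2, Cybb, Adgre1 and Ms4a7 at least 1 null group mean was dim, under the first quartile over all genes, so only the direction can be read. GH differences of Spi1 were 0.62 in control cells and -0.47 in null cells. Each of these was called over all arrays, but each lost its call when any of 3 single arrays was left out. The call in null cells was also lost with arrays centred on their medians or quantile normalized again, and that in control cells with only the arrays compared. The cause of these differences was not tested.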

How the results depend on the processing

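The 3 genotype counts stayed within 1.5 times of the main count under every alternative run. Leaving out 1 array gave 39 to 40 members called without GH, 40 to 40 with GH and 40 to 41 averaged over GH states. For GH it gave 4 to 7 members in control cells and 2 to 6 in null cells, and 5 to 8 for the interaction. Tested against a change of at least 1.5-fold, 35 members were called without GH, 34 with GH and 38 averaged, 1 member was called for GH in control cells (Lcp2), 0 in null cells and 1 for the interaction (Lcp2). No share of all genes is given for this test or for the fits with an array left out.

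Same-numbered arrays of different groups deviated from their group means with correlations of -0.279 to 0.129, so the replicate numbers were not taken as a pairing. With the replicate number as a block, 7 members were called for GH in control cells, 4 in null cells and 7 for the interaction. Coro1a in null cells (0.39, adjusted p = 0.0566) and the Itgb2 interaction (0.49, adjusted p = 0.0641) lost their calls, and no other named value did. With the numbers crossed between GH states, an alternative chosen after seeing the data, the counts were 8, 5 and 9. No share of all genes is given for the fits with a block, so these counts have no background beside them.

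Signs changed for 3 genes. Leaving out 1 array, the Dock2 difference ran from -0.01 to 0.18 without GH and from -0.23 to 0.08 with GH. Dock2 without GH was -0.01 without control replicate 3 without GH and -0.22 with the mean of its probe sets. Dock2 with GH was 0.08 without control replicate 3 with GH and 0.04 after a further quantile normalization. Without the probe sets marked as matching several transcripts, also chosen after seeing the data, the difference without GH was 0.01 for Laptm5 and 0.02 for Trem2, and with GH it was 0.00 for Trem2 and -0.11 for Laptm5. For Laptm5 and Trem2 the probe set that remained was not called, and Aif1 had no probe set left. The cause was not tested for Dock2. Dim levels limit sizes for 11 members without GH and 16 with GH.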

Other observations

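The lists of related macrophage genes also held GH-called genes in control cells. Of 25 further myeloid receptor and signalling genes, 4 were higher and 2 lower with GH, and of 17 macrophage transcription factors, CSF ligands and receptors, 4 were higher and 2 lower. The interaction of genotype and GH was called for 2 higher and 4 lower of the 25, and for 2 higher and 1 lower of the 17. The background for these counts was 2.62% of all genes for GH in control cells and 5.16% for the interaction.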
